A study of Mus musculus with 12 samples.

Results

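Integrins, laminins and the proteins that tie laminin networks together were followed in sorted dermal papilla (DP) cells of the mouse hair follicle. The set held every gene named as an integrin alpha or beta subunit or as a laminin alpha, beta or gamma chain, without the integrin-like gene Itgbl1, plus the nidogens Nid1 and Nid2, perlecan (Hspg2) and agrin (Agrn). It came to 37 of the 14986 protein-coding genes listed at both ages, namely 14 alpha subunits, 8 beta subunits, 11 laminin chains and 4 linkers and proteoglycans. Itgae matched the name rule but was listed at P16 alone and was left out.

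Integrins are cell surface receptors built from an alpha and a beta subunit, and the pair decides which matrix protein is bound. Laminins are cross-shaped trimers of an alpha, a beta and a gamma chain that assemble into a sheet, and nidogens, perlecan and agrin connect that sheet to collagen IV and to cells. A basement membrane of this kind lies between the DP and the epithelial matrix that surrounds it, so the papilla both contributes to it and holds on to it.

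DP cells carrying YFP were isolated by 2 rounds of FACS from whole dissociated skin at postnatal days 14 and 16, and RNA depleted of ribosomal RNA was sequenced from 3 mice per group. The YFP came from a ROSA26 reporter switched on by Cor-cre, a Cre driven by the Corin locus and restricted after birth to the DP. dMF1/2 mice carried Cor-cre with both copies of Fgfr1 and of Fgfr2 floxed. Controls are labelled wild type, but the crosses gave either Cor-cre with 1 floxed copy of each receptor gene or floxed copies without Cre. Since YFP needs Cre, the listed crosses would make the sorted controls carry Cor-cre and 1 floxed copy of each receptor gene. The genotype of each sorted control is not stated. Both groups are labelled as anagen, the growth phase of the hair cycle. The comparison asked which transcripts of the papilla differ at the same age when it lacks both receptors. The paper reports that anagen lasts longer in mice whose papilla lacks both receptors, and that catagen, the regression phase, starts later. Mice of equal age may therefore stand at different points of anagen. The part of hair cycle stage in the differences between genotypes was not tested.

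Libraries held 19302358 to 29860750 reads, of which the 37 genes took 0.872 to 1.39%. Values are normalized reads, meaning reads divided by a size factor set over the 6 libraries of a day, and nothing shows that samples of a group came from separate litters, so p-values measure the spread between these mice. Replicate 1 of both genotypes at P14 stood apart, with Col1a1 at 7.06% and 9.15% of reads against 13.1 to 17.7% in the other libraries. Gene counts of Fgfr1 and Fgfr2 include exons outside the floxed parts and so do not check the labels. Fgfr1 had 12517, 8512 and 9940 normalized reads in control against 8016, 6226 and 7552 in dMF1/2 mice at P16 (log2 fold change -0.50, limma's adjusted p = 0.130), and Fgfr2 had 5079 ± 298 and 5081 ± 838 (SD, n = 3). The DP markers Wif1 and Corin were the most abundant genes of an 18-gene papilla list at P14, whereas Krt5 averaged 87.2 to 148 normalized reads in the 4 groups, Epcam 2.87 to 6.09 and Ptprc 0.982 to 5.97. Sums of 8 dermal fibroblast markers were far higher, at 123000 to 259920 over all libraries. In P16 control they were 200590 to 259920, against 56928 to 106500 for the DP list. Sums of 8 dermal sheath and smooth muscle markers were 18066 to 53680. Which cells these reads came from was not tested. In these bulk samples fewer cells of a type and less RNA per cell cannot be told apart.

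Levels were first compared between genes as normalized reads per kilobase of exon, on one scale for the 12 libraries. Among alpha subunits Itga9, which pairs with beta 1 and binds tenascin C and osteopontin, stood first in every group and made up 41.9% of the alpha total in control and 42.3% in dMF1/2 mice at P14. At P16 its share was 27.2% in control and 43.2% in dMF1/2 mice. Itga5 (fibronectin receptor), Itgav (receptor for RGD ligands) and Itga11 (collagen receptor) followed at means of 476, 372 and 369 per kilobase over the 12 libraries, against 1177 for Itga9. Itgav and Itga11 exchanged places between P14 and P16, and their ranges over the libraries, 282 to 436 and 247 to 563, overlapped. Among beta subunits the common partner Itgb1 (mean 2838) made up 52.4 to 55.6% of the total in the 4 groups and Itgb5, a partner of Itgav (mean 2045), 36.4 to 41.0%. Itgb3 (mean 230), another partner of Itgav, came next.

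Lamc3, a gamma chain, averaged 3738 per kilobase over the 12 libraries, Lamc1 2757, Lamb2 2535, Lamb1 1718, Lama2 1708 and Lama4 870. The libraries of Lamc3 ranged from 1723 to 7952, which spans those of Lamc1 (2465 to 3304) and Lamb2 (2291 to 3159). Lama3 and Lamb3, which belong to the anchoring laminin of epithelia, were far lower at 36.4 and 13.3 per kilobase, and so was Lama5 at 123. Nid1 averaged 3951 and Hspg2 2814, against 435 for Nid2 and 431 for Agrn, and the order of these last 2 differed between groups. Itgal and Itgb2, subunits of leukocyte integrins, Itgb6, an epithelial subunit, and Lama1 stayed below the mean of 10 normalized reads set for testing, which left 33 members.

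**Figure D1:**
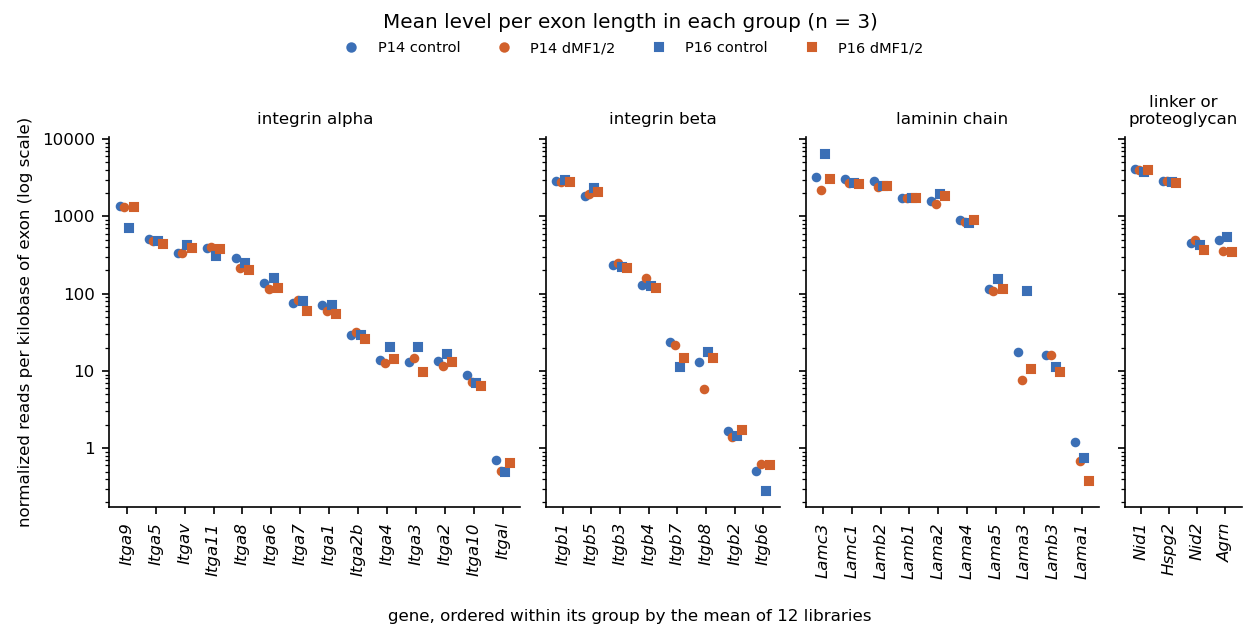
Mean level of 36 of the 37 genes in normalized reads per kilobase of exon (vertical axis, log scale), with blue for control and orange for dMF1/2 mice, circles for P14 and squares for P16 (n = 3 per group). Within each role the groups mostly lie on top of each other on a log axis, while Lama3 (109.8 in control against 10.6 in dMF1/2 mice at P16), Lamc3 and Itga9 spread apart.

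At P16 laminin alpha 3 and agrin were lower in dMF1/2 mice than in control mice, and no member passed the test as higher. Lama3 differed 9.01-fold and Agrn 1.57-fold. These 2 are 6.06% of the 33 members tested, and the background over all genes was 4.32% (582 of 13457), with 2.14% of genes lower. Libraries of the same replicate number deviated together within a day, and when that number was fitted as a block 8 members passed (7 lower, 1 higher) against 10.4% of all genes (5.56% lower and 4.87% higher). Those added included Itga3, Itga7, Itga9, Lama5 and Lamc3. Applied to recovered whole reads, DESeq2 called 5 members against 8.35% of all genes, edgeR 2 against 4.48%, and edgeR with the block 9 against 10.7%.

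Lama3 (ENSMUSG00000024421), the alpha chain of the anchoring laminin of epithelia, had 1998, 576 and 1016 normalized reads in control against 116, 120 and 112 in dMF1/2 mice at P16. The dMF1/2 mice were alike, while the control mice varied more than 3 times among themselves and all lay above them. The log2 fold change was -3.17 (standard error 0.38, limma's adjusted p = 0.00611), and it stayed past the threshold without any one library (highest adjusted p = 0.0322, without P16 control replicate 3). At P14 the values were 109, 131 and 316 in control against 82.4, 72.5 and 87.8 in dMF1/2 mice, again without overlap, with a log2 fold change of -1.03 that did not pass (limma's adjusted p = 0.596). An antisense gene, Gm29200, overlaps Lama3, and the strand setting of the counting is not stated.

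Lamb3, the beta chain that assembles with Lama3, did not follow it in size. It had 36.7, 112 and 81.1 normalized reads in control against 27.01, 90.5 and 79.4 in dMF1/2 mice at P16, where the groups overlapped (log2 fold change -0.25, standard error 0.53). Receptor subunits for this laminin in epithelia are Itga6, Itgb4 and Itga3. Itgb4 had 891 ± 130 and 836 ± 103 normalized reads (SD, n = 3, log2 fold change -0.09), in groups that overlapped. For Lamb3 and Itgb4 the dMF1/2 mouse was the lower within each replicate number, and neither passed with the block. Itga6 had 1241, 1355 and 1738 in control against 1142, 884 and 1210 in dMF1/2 mice, which did not overlap (log2 fold change -0.42, limma's adjusted p = 0.197, 0.0528 with the replicate block and 0.0495 by edgeR with it). The summed level of 16 keratinocyte markers, 15 of them listed at P16 and Krt27 not, was 649, 1374 and 575 in control against 967, 1216 and 994 in dMF1/2 mice at P16, so the groups overlapped, and 0 of the 12 that could be tested passed.

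Lamc3 (ENSMUSG00000026840, chromosome 2: 31887291 to 31946539), a laminin gamma chain, ranked first among laminin chains per length in both control groups and in dMF1/2 mice at P16, but below Lamc1 and Lamb2 in dMF1/2 mice at P14. It had 49144, 30558 and 40879 normalized reads in control against 25697, 11346 and 19876 in dMF1/2 mice at P16, each control mouse above each dMF1/2 mouse. The log2 fold change was -1.14 (standard error 0.30), with a limma adjusted p of 0.0788, and of 0.00287 with the replicate block. An antisense gene, Gm13441, overlaps the start of Lamc3. The other abundant chains differed little. Lamc1 had 21146, 22610 and 23753 in control against 23099, 22284 and 20777 in dMF1/2 mice, and Lamb2 14395, 17392 and 14313 against 15396, 14172 and 16041. For Lamb1, Lamb2, Lamc1, Lama2 and Lama4 the 95% intervals of the log2 fold change lay between -0.43 and 0.46. Lama5, a chain of epithelial and endothelial laminins, had 1828, 1810 and 1676 in control against 1279, 1640 and 1103 in dMF1/2 mice, with a log2 fold change of -0.42 with a limma adjusted p of 0.144, and of 0.0447 with the replicate block.

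**Figure D2:**
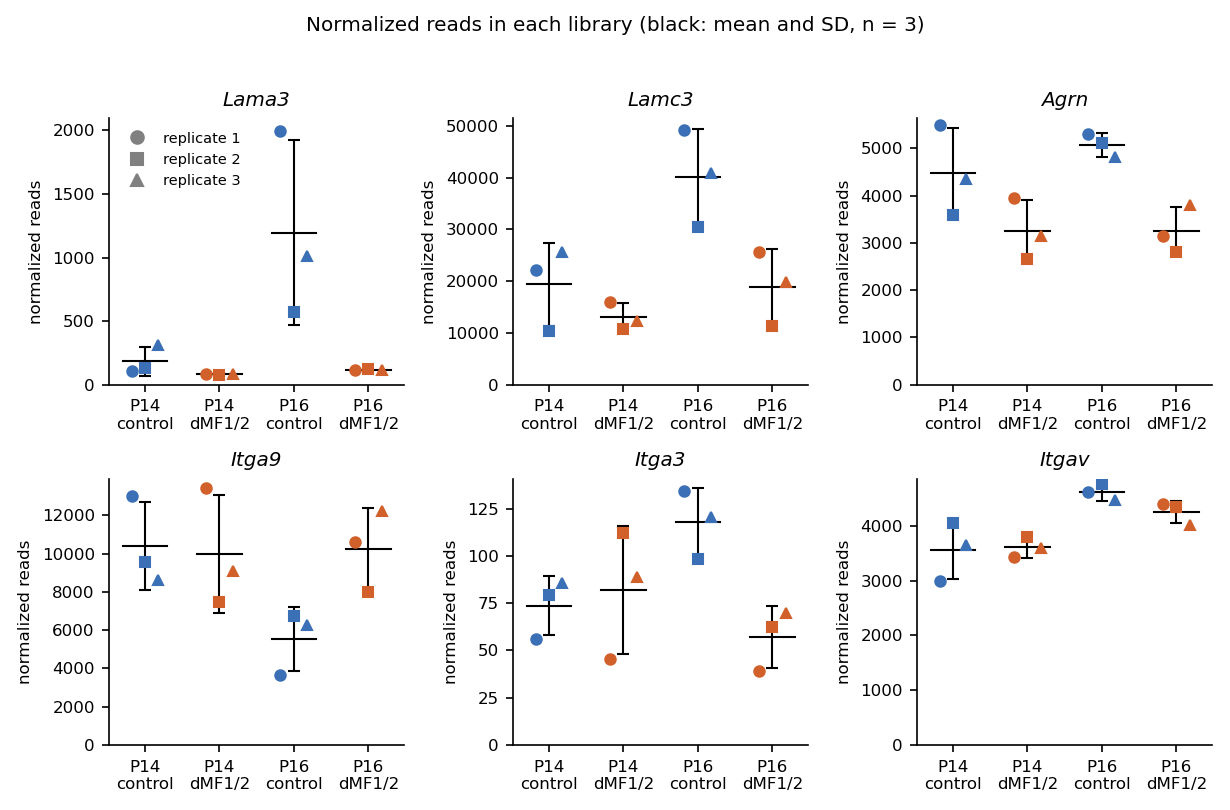
Normalized reads (vertical axes, linear from 0) of 6 members in each library by group, with blue for control and orange for dMF1/2 mice, the symbol giving the replicate number and black lines the mean and SD (n = 3). At P16 the dMF1/2 libraries lie below all control libraries for Lama3, Lamc3, Agrn, Itga3 and Itgav and above them for Itga9.

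Agrn (ENSMUSG00000041936, chromosome 4: 156165290 to 156197488, minus strand), a heparan sulfate proteoglycan that binds laminin and dystroglycan, had 5303, 5108 and 4813 normalized reads in control against 3156, 2813 and 3808 in dMF1/2 mice at P16. All dMF1/2 mice lay below the lowest control. The log2 fold change was -0.65 (standard error 0.12, limma's adjusted p = 0.0242). The call was lost without P16 control replicate 1 (0.0591) or 3 (0.0706) and without P16 dMF1/2 replicate 1 (0.0782) or 2 (0.0561), while the log2 fold change stayed between -0.77 and -0.55. The other 3 linkers did not pass. Hspg2, the core protein of perlecan, had 40785, 40662 and 40814 in control against 38852, 40055 and 38841 in dMF1/2 mice, a difference of -0.05 on the log2 scale with groups that did not overlap. Nid1 had 26074, 28451 and 25655 against 28281, 29612 and 25745, and Nid2 2154, 2314 and 2312 against 1767, 2174 and 1798.

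Sequences are given for the members called in a limma fit, with or without the block, whose RefSeq promoter window ends exactly at the start of the gene as listed. Of the 37 members 24 matched a window, and those shown are the 250 bases before the start on the gene's strand in GRCm38.p6. Both strands were searched for GGGCGG (GC box), CCGGAA (ETS), TGANTCA (AP-1) and CTTTGA (TCF/LEF), matches being allowed to overlap, and capitals mark every match found. They mark GC boxes alone, which 32.7% of 32851 windows of this length held, while 12% held the ETS letters, 6.75% the AP-1 letters and 13.8% the TCF/LEF letters.
Agrn, chr4:156197489-156197738, minus strand: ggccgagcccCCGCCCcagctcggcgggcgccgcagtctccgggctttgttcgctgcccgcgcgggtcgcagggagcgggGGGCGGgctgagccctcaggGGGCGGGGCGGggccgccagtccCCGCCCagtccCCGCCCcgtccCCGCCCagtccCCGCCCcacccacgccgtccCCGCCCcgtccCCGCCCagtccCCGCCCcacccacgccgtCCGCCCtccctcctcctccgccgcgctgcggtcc
Lama5, chr2:180225860-180226109, minus strand: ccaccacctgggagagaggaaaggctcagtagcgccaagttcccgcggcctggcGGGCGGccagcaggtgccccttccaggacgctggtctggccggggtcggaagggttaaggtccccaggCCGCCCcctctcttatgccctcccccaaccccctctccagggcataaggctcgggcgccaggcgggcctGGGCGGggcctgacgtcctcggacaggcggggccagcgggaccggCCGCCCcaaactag
Itgav, chr2:83724147-83724396, plus strand: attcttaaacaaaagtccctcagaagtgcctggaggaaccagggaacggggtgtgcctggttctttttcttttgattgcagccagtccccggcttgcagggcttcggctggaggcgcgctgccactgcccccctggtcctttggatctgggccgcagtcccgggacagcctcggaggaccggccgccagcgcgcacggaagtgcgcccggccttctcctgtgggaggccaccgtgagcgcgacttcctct
The window of Agrn held 12 GC box matches and that of Lama5 held 4. That of Itgav held none of the 4 motifs.

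Among integrin subunits at P16 none passed limma's main test, with all libraries, a pseudocount of 1 and no block. Without the block Itga3 passed with a pseudocount of 10, and Itga7 without P16 dMF1/2 replicate 2 (limma's adjusted p = 0.0491). Itga3 (ENSMUSG00000001507, chromosome 11: 95044474 to 95076801), a laminin receptor subunit, had 134, 98.5 and 121 normalized reads in control against 38.9, 62.5 and 69.9 in dMF1/2 mice, with no overlap. Its log2 fold change was -1.06 (standard error 0.24), with a limma adjusted p of 0.0524, and of 0.0409 with the replicate block. Itga7, another laminin receptor subunit, had 640, 668 and 662 in control against 481, 571 and 421 in dMF1/2 mice (log2 fold change -0.43, limma's adjusted p = 0.0914, and 0.0420 with the replicate block).

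Itga9 (ENSMUSG00000039115, chromosome 9: 118606690 to 118901003) was the only member with higher values in every dMF1/2 mouse at P16. It had 3648, 6764 and 6254 normalized reads in control against 10601, 7982 and 12226 in dMF1/2 mice. The log2 fold change was 0.91 (standard error 0.25), with limma's adjusted p at 0.0842 and at 0.0457 with the replicate block. At P14 the groups overlapped, with 12991, 9558 and 8650 in control against 13430, 7458 and 9108 in dMF1/2 mice. An antisense gene, Gm2415, overlaps Itga9.

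Apart from Itga9 and Itga11, the abundant integrin subunits Itgb1, Itgb5, Itgb3, Itga5 and Itgav differed little between genotypes at P16. Itgb1 had 11166, 13209 and 12766 normalized reads in control against 10768, 12585 and 11193 in dMF1/2 mice. Itgb5 had 8822, 8843 and 7626 against 8258, 7918 and 6013, Itgb3 1285, 1196 and 1526 against 1218, 1523 and 1096, and Itga5 2197, 2380 and 2547 against 2065, 2189 and 2306. In each of these 4 the groups overlapped, and log2 fold changes lay between -0.20 and -0.07. Within each replicate number the dMF1/2 mouse was the lower for Itgb1, Itgb5 and Itga5 but not for Itgb3, and none of the 4 passed with the block. Itgav had 4606, 4769 and 4462 in control against 4401, 4337 and 4013 in dMF1/2 mice, which did not overlap, at a log2 fold change of -0.12 (95% interval -0.30 to 0.06). Itga11 had 1285, 1683 and 1843 in control against 1807, 2216 and 1854 in dMF1/2 mice, a higher mean with groups that overlapped. Itga1, at a log2 fold change of -0.41, contains the genes Pelo and Gm49395 on its own strand, so its count is less certain.

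By count, 28 of the 33 members had a lower mean log2 value in dMF1/2 mice at P16 and 5 a higher one, with a median log2 fold change of -0.19, while over all 13457 genes 6836 were lower and the median was -0.0043. The medians by role were -0.28 for 13 alpha subunits, -0.10 for 6 beta subunits, -0.17 for 10 laminin chains and -0.15 for the 4 linkers. Groups did not overlap for 11 members (33.3%), against 24.5% of all genes.

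**Figure D3:**
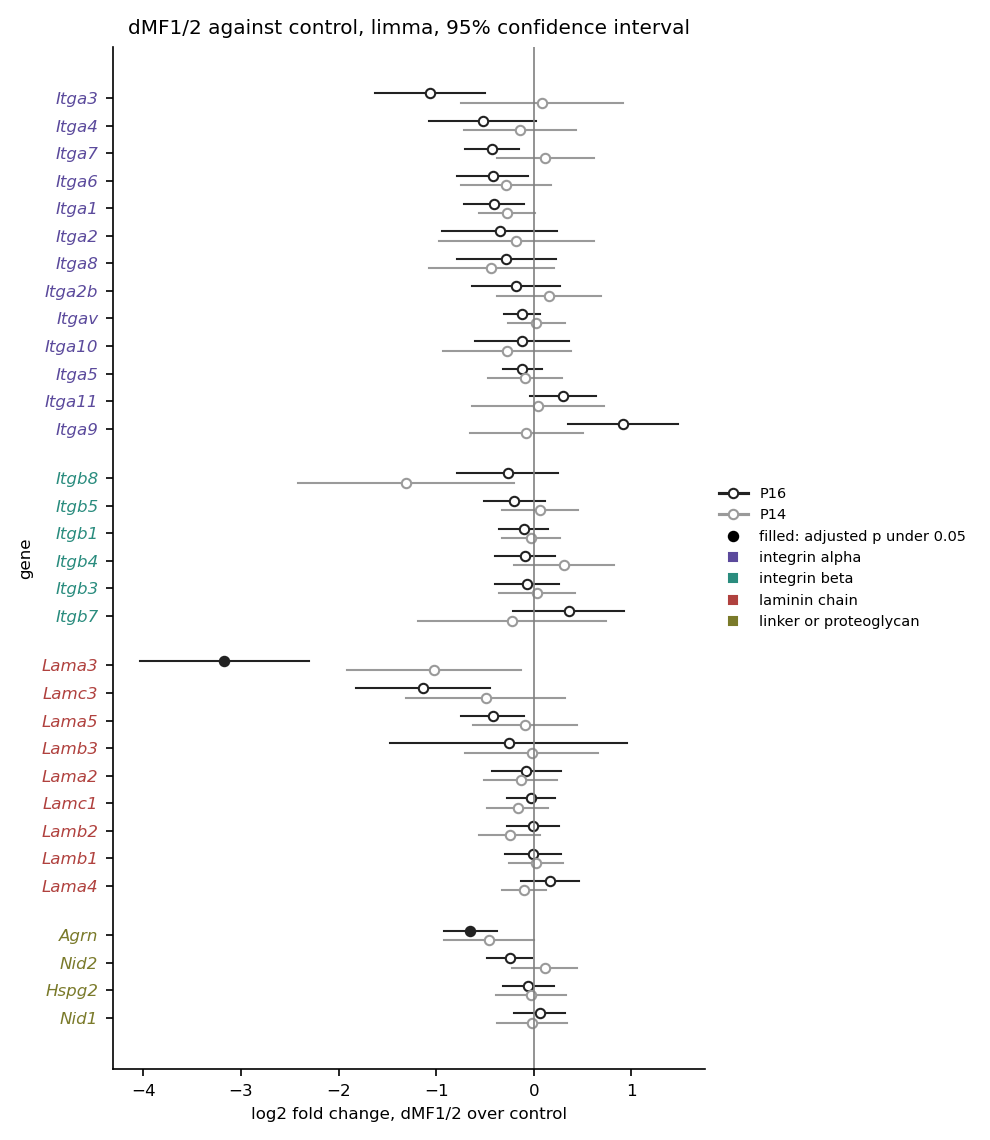
Log2 fold change of dMF1/2 over control (horizontal axis) of 32 of the 33 members tested, black for P16 and grey for P14, with 95% confidence intervals from limma and filled circles for an adjusted p under 0.05. The filled circles are Lama3 and Agrn at P16, and most of the other P16 values lie between -0.5 and 0.3.

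Markers of other cells were set beside these differences. At P16 the summed level of 12 endothelial markers was 1879, 2884 and 3090 in control against 1572, 1617 and 1727 in dMF1/2 mice, with no overlap, and 1 of the 12, Plvap, passed as lower. Pecam1 had 80.3, 329 and 250 against 59.4, 124 and 81.5. Members of vascular basement membranes such as Lama5, Lama4 and Agrn are also made by endothelium. Of these, Lama5 and Agrn had lower means in dMF1/2 mice and Lama4 a higher one. Lama4 had 8402, 10470 and 11348 in control against 12100, 10634 and 10893 in dMF1/2 mice, in groups that overlapped. The 10 dissociation stress genes summed to 366750 to 510890 in control and 327140 to 350860 in dMF1/2 mice, with no overlap. All 10 had a lower mean log2 value in dMF1/2 mice and 1, Atf3, passed as lower (log2 fold change -0.65, limma's adjusted p = 0.0224), a call lost without P16 dMF1/2 replicate 3 (0.0956). The 18 DP markers summed to 56928 to 106500 in control and 117100 to 171040 in dMF1/2 mice, also with no overlap. Of the DP markers, 6 passed as higher and 1 as lower. With the replicate block 14 DP markers passed as higher and 1 as lower, and 3 endothelial and 3 stress genes as lower. The block also called 1 glial marker as higher and 2 as lower, and as lower 1 dermal sheath and smooth muscle and 1 dermal fibroblast marker. Over all genes it called 4.87% as higher and 5.56% as lower. Sums of leukocyte, melanocyte, dermal sheath and smooth muscle, skeletal muscle, glial and dermal fibroblast markers overlapped between genotypes, those of platelet markers did not (67.2 to 98.3 against 102 to 112), and Erbb3 of the glial list passed as lower. The part of any of these in the differences of the members was not tested.

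At P14 limma called 0 of the 33 members, as did DESeq2 and edgeR, and 2 had an unadjusted p under 0.05 (Itgb8 and Lama3) against 7.32% of all genes. The background was 0.0525% of all genes by limma (7 of 13334), 0.0525% by edgeR and 1.55% by DESeq2. With the replicate block Agrn and Itga8 passed as lower, 6.06% of the members against 1.02% of all genes by limma and 1.11% by edgeR. Agrn had 5492, 3590 and 4364 normalized reads in control against 3952, 2656 and 3143 in dMF1/2 mice at P14. Within each replicate number the dMF1/2 mouse was the lower, while the groups as such overlapped. The log2 fold change was -0.46, with a limma adjusted p of 0.684, and of 0.0246 with the replicate block. Itga8, which with beta 1 binds nephronectin, had 1526, 2594 and 2261 in control against 1062, 1908 and 1794 in dMF1/2 mice (log2 fold change -0.43, limma's adjusted p = 0.867, and 0.0430 with the replicate block). Its values at P16 were 1350, 2409 and 1881 against 1230, 1848 and 1497, again lower in the dMF1/2 mouse of each number (log2 fold change -0.28, limma's adjusted p = 0.569, and 0.0602 with the replicate block). Its ligand nephronectin (Npnt) had 723 ± 444 and 839 ± 372 normalized reads at P14 (SD, n = 3).

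Other members called at P16 or between the days, and the abundant members, had these values at P14. Lamc3 had 22172, 10350 and 25683 normalized reads in control against 16048, 10689 and 12393 in dMF1/2 mice, Itga3 55.9, 79.3 and 85.8 against 45.4, 112 and 88.9, and Itga7 524, 536 and 742 against 498, 816 and 655. Lama5 had 1116, 1171 and 1579 against 858, 1412 and 1413, Itgav 2992, 4048 and 3642 against 3426, 3794 and 3591, and Nid2 2517, 1974 and 2470 against 2421, 2914 and 2200. In each of these 6 the genotypes overlapped at P14. Of the abundant members, Itgb1 had 9848, 11907 and 12447 against 10413, 11510 and 11552, Itgb5 5571, 6558 and 7419 against 5556, 7847 and 7088, and Itgb3 1262, 1414 and 1471 against 1101, 1712 and 1499. Itga5 had 2195, 2637 and 2616 against 1858, 2817 and 2393, Lamc1 26984, 23331 and 23979 against 21212, 23698 and 21374, and Lamb2 18973, 14572 and 17415 against 14085, 14138 and 14554. Nid1 had 32350, 24803 and 26575 against 27200, 28033 and 27153, and Hspg2 41054, 42336 and 39977 against 37621, 42691 and 40491. Among these 8 the groups overlapped except for Lamb2, whose log2 fold change was -0.24 (limma's adjusted p = 0.812).

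Changes from P14 to P16 were taken from 1 fit of the 12 libraries after joint rescaling, which moved no library by more than 2.23% from its deposited scale. In control mice Lama3 and Itgav rose and Itga9 fell, 3 of 33 members (9.09%), against a background of 14.5% of all genes (1951 of 13415), of which 6.26% rose and 8.28% fell. DESeq2 called 5 members against 19.2% of all genes, and limma with the replicate block, although the numbers do not pair libraries of different days, called Lama3 and Lamc3 as higher against 3.47%. Lama3 went from 188 ± 115 to 1179 ± 718 normalized reads (SD, n = 3), with a log2 fold change of 2.62 (adjusted p in limma = 0.00405, standard error 0.42). Without any one library its adjusted p was at most 0.0199, and it was 0.0211 without both P14 replicate 1 libraries. Itga9 went from 10538 ± 2315 to 5474 ± 1644 (log2 fold change -0.97, limma's adjusted p = 0.0371), and Itgav from 3609 ± 542 to 4545 ± 141 (log2 fold change 0.34, limma's adjusted p = 0.0462).

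The calls of Itga9 and Itgav depended on single libraries, while that of Lama3 did not. Without P14 control replicate 1 their adjusted p-values were 0.132 and 0.144, and the log2 fold changes -0.80 and 0.22. That library had the highest Itga9 and the lowest Itgav of the P14 controls, 12991 and 2992 normalized reads. Without P16 control replicate 1, which had the lowest Itga9 of all libraries (3648), the adjusted p of Itga9 was 0.134. The call of Itga9 was also lost without P14 control replicate 2 (0.0744), P16 control replicate 3 (0.0632), P14 dMF1/2 replicate 3 (0.0526) or P16 dMF1/2 replicate 1 (0.0519). That of Itgav was kept without P14 control replicate 2 (0.0298) or P14 dMF1/2 replicate 1 (0.0484) and lost without any other library, at adjusted p-values up to 0.144. It was also lost with edgeR (0.0627), with TMM scaling (0.0557) and without the filter on low values (0.0503). Itgb7, the beta subunit best known from lymphocytes, had 77.3, 76.1 and 41.9 in control mice at P14 and 30.6, 28.0 and 36.5 at P16, and in dMF1/2 mice 41.2, 96.02 and 38.9 and then 31.3, 49.5 and 43.4. In control mice Lamc3 went from 19659 ± 8132 to 39620 ± 9219. For both, limma's adjusted p was above the threshold (0.0759 and 0.0651), while that of DESeq2 was below it (0.0371 and 0.0203).

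Marker lists also differed between the days. In control mice 8 of 18 DP markers fell from P14 to P16 and 0 rose (median log2 fold change -0.97), among them Corin at -2.22. Their summed level was 136310 to 194040 at P14 and 56928 to 106500 at P16, without overlap. Of 12 endothelial markers 2 rose and 1 fell (median 1.01), with sums of 1484 to 2130 and 1879 to 3090 that overlapped. Of 10 dissociation stress genes 3 rose, among them Hspa1b at 1.77, and 9 had a positive change, with sums of 221750 to 368570 and 366750 to 510890 that overlapped. In dMF1/2 mice limma called 0 markers of these 3 lists between the days, while 4, 2 and 3 had an unadjusted p under 0.05 and DESeq2 called 3, 2 and 2, and their medians were -0.22, 0.22 and 0.23. The part of any of these in the changes of Lama3, Itgav and Itga9 was not tested.

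In dMF1/2 mice limma called 0 of the 33 members between P14 and P16, as did edgeR, and 4 had an unadjusted p under 0.05 against 22.8% of all genes. The background was 5.8% of all genes by limma (778 of 13415) and 5.72% by edgeR. Lama3 was 81.8 ± 7.83 at P14 and 114 ± 4.19 at P16, Itga9 10115 ± 3149 and 10070 ± 2090, and Lamc3 13192 ± 2806 and 18594 ± 7028 (SD, n = 3). DESeq2 called Itgb8 as higher at P16 (4.09% of all genes) and Nid2 as lower (5.9%), and the block called Itgb8 as higher in limma (0.522% of genes) and in edgeR (0.417%). Itgb8, a partner of Itgav in the activation of latent TGF-beta, had 102, 25.6 and 65.5 normalized reads at P14 and 183, 114 and 204 at P16 in dMF1/2 mice. Its log2 fold change was 1.48 (standard error 0.40), with adjusted p-values of 0.0539 by limma and 0.00975 by DESeq2, and the groups of the days did not overlap. Limma's adjusted p was 0.0167 without both P14 replicate 1 libraries, 0.0176 without P14 dMF1/2 replicate 1 alone, and 0.0529 to 0.177 without any other single library. Without P14 dMF1/2 replicate 2, the lowest library, the log2 fold change was 0.93. In control mice Itgb8 had 177, 122 and 125 at P14 and 231, 181 and 177 at P16. Nid2 went from 2539 ± 367 to 1877 ± 227 (log2 fold change -0.43), with adjusted p-values of 0.0696 by limma and 0.0299 by DESeq2. The end of Nid2 overlaps Rtraf on the other strand.

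**Figure D4:**
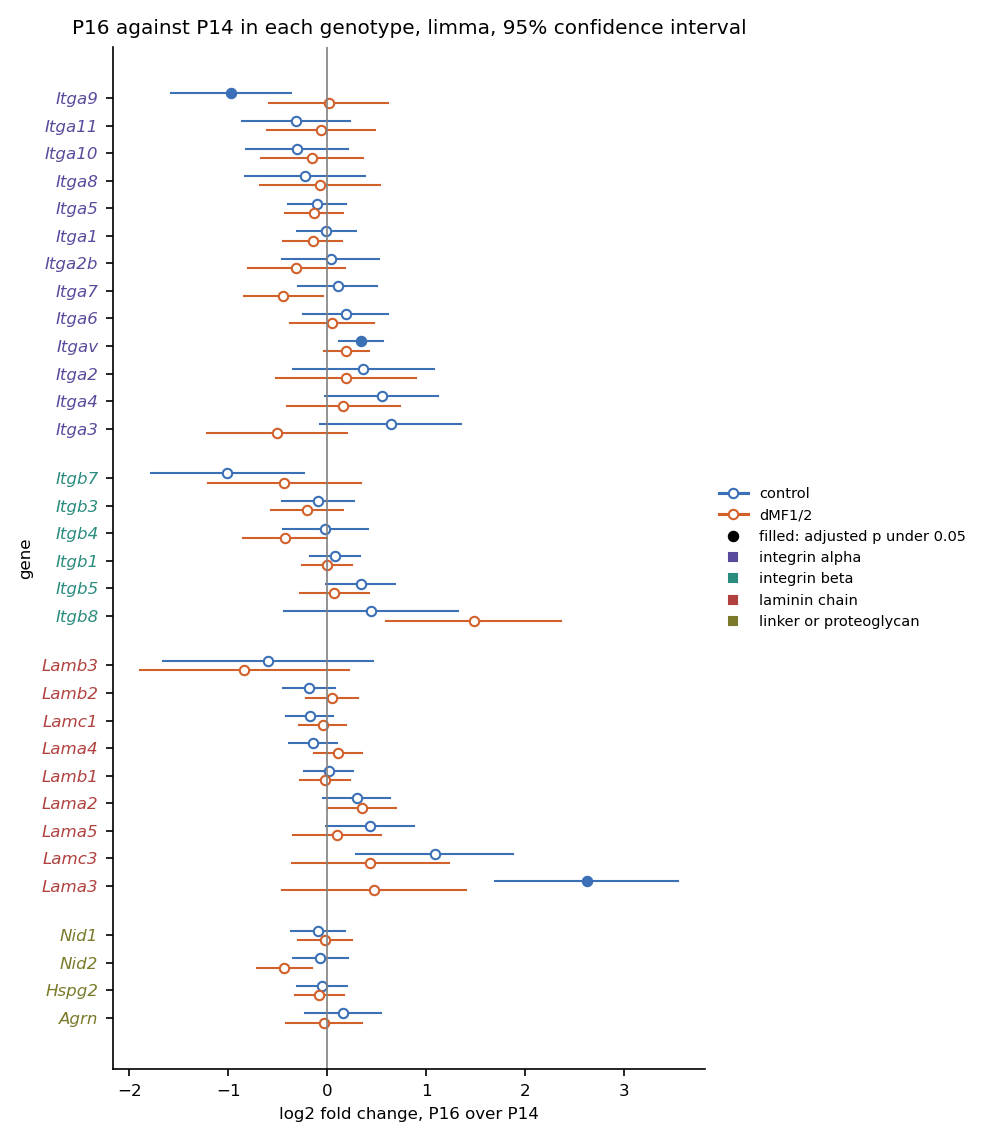
Log2 fold change from P14 to P16 (horizontal axis) of 32 of the 33 members tested, blue in control and orange in dMF1/2 mice, with 95% confidence intervals from limma and filled circles for an adjusted p under 0.05. The filled circles are Lama3, Itgav and Itga9 in control mice.

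Whether a change between days differed between genotypes was tested as an interaction, and 0 of 33 members and 0 of 13415 genes passed by limma. DESeq2 and edgeR also called 0 members, against 0.0522% and 0.0% of all genes, as did limma (0.0%). An unadjusted p under 0.05 was reached by 3 members, against 4.83% of all genes. These were Lama3, at -2.15 on the log2 scale (change in dMF1/2 minus change in control, standard error 0.60, unadjusted p = 0.0041 in limma), Itga9 at 0.99 (standard error 0.39) and Itga3 at -1.15 (standard error 0.46). The passing of Lama3 and Itga9 in control mice and not in dMF1/2 mice is therefore not shown to be a difference between the genotypes.

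The other genes of the pathway were taken from lists. Of 31 intracellular partners of integrins tested at P16, 2 passed as lower in dMF1/2 mice and 0 as higher, where 2.14% of all genes passed as lower and 2.18% as higher. They were Tln2 (talin 2), at 2128 ± 247 in control and 1368 ± 185 in dMF1/2 mice (SD, n = 3), and Pxn (paxillin), at 1219 ± 122 and 857 ± 35.7. Of 14 non-integrin laminin receptors and hemidesmosome genes 0 passed by limma, 2 had an unadjusted p under 0.05 against 19.0% of all genes, and DESeq2 called 1 against 8.35%. With the replicate block 2 integrin partners passed as higher and 5 as lower, and 2 genes of the receptor list as higher and 1 as lower. Over all genes the block called 4.87% as higher and 5.56% as lower. The medians of these lists were -0.10 and -0.07 on the log2 scale, against -0.0043 over all genes.

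Of 21 integrin ligands that are not collagens or laminins, 3 passed as lower in dMF1/2 mice at P16 against 2.14% of all genes, and 0 as higher. With the replicate block 5 passed as lower and 1 as higher, against 5.56% and 4.87% of all genes. Spp1 (osteopontin) had 2053, 752 and 1235 normalized reads in control against 44.3, 13.1 and 27.5 in dMF1/2 mice, with a log2 fold change of -5.56 (adjusted p in limma = 0.00311). Tnc (tenascin C) had 3020, 2742 and 1719 against 1104, 699 and 967 (log2 fold change -1.42, limma's adjusted p = 0.0178), and Tnn (tenascin N) had 994 ± 676 and 114 ± 66.5 (SD, n = 3). Every control mouse lay above every dMF1/2 mouse for Spp1 and Tnc. Fn1, which encodes fibronectin, had 75803 ± 5450 and 68779 ± 13981 and did not pass.

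Of 26 other basement membrane proteins, 2 passed as lower and 2 as higher in dMF1/2 mice at P16, against 2.14% and 2.18% of all genes. With the replicate block 4 passed as lower and 4 as higher, against 5.56% and 4.87%. Egflam (pikachurin, a dystroglycan ligand) had 5915 ± 928 in control and 2582 ± 411 in dMF1/2 mice (SD, n = 3), and Col7a1, the anchoring fibril collagen, 3530 ± 652 and 2021 ± 425. Col4a4, a collagen IV chain, had 420 ± 43.9 and 678 ± 43.9, and Ltbp1, a latent TGF-beta binding protein, 11822 ± 1384 and 20974 ± 3635. Of the 9 genes of these lists named as passing limma without the block, Spp1 and Egflam stayed past the threshold without any one library (highest adjusted p 0.0260 and 0.0368). The other 7 did not, each having its highest adjusted p (0.0621 to 0.151) without P16 dMF1/2 replicate 3. At P14 limma called 0 genes of the 4 lists, while 7 had an unadjusted p under 0.05 (7.32% of all genes did) and DESeq2 called 3 (1.55% of all genes). With the replicate block 1 ligand passed as lower and 1 other basement membrane protein as higher. Over all 13334 genes the block called 136 as lower and 88 as higher.

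From P14 to P16 in control mice 4 of 31 integrin partners passed as higher and 4 as lower. Of all genes 14.5% passed, 6.26% as higher and 8.28% as lower, which is the background for each list between these groups. The largest changes were those of Parvg (gamma-parvin), at -1.99 on the log2 scale, Zyx (zyxin) at -0.73, Tgfb1i1 (Hic-5) at -0.69 and Tns3 (tensin 3) at 0.60. Of 21 ligands 5 passed as higher, led by Spp1 at 3.57, Tnn at 2.17, Icam1 at 1.07 and Thbs1 (thrombospondin 1) at 1.06, and 2 as lower, Emilin1 at -0.81 and Postn (periostin) at -0.60. Of 26 other basement membrane proteins 1 passed as higher (Egflam at 0.78) and 2 as lower (Smoc1 at -0.75 and Col4a2 at -0.64), and of 14 non-integrin receptors 1 passed as higher, Utrn (utrophin) at 0.36. Of these named genes Zyx, Tgfb1i1 and Emilin1 stayed past the threshold without any one library. The calls of Spp1, Tnn, Tns3, Postn, Egflam, Smoc1 and Col4a2 were lost without P16 control replicate 1 (adjusted p 0.0904 to 0.164), that of Thbs1 without P14 control replicate 1 (0.0769), that of Parvg without P16 control replicate 2 (0.113), and those of Icam1 and Utrn without P16 control replicate 3 (0.0821 and 0.0894). In dMF1/2 mice 3 integrin partners passed between the days, Tgfb1i1 at -0.87, Zyx at -0.84 and Crk at 0.33, and 2 ligands, Icam1 at 1.01 and Emilin1 at -0.61, against 5.8% of all genes, while 0 genes of the other lists passed, 1 of which had an unadjusted p under 0.05. The calls of Crk and Icam1 were lost without P16 dMF1/2 replicate 3 (0.130) and P14 dMF1/2 replicate 3 (0.163).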

How the data were processed

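RNA of FACS-sorted YFP-positive DP cells was compared between 3 control and 3 dMF1/2 mice per age, and libraries of other ages were not used here. Per the study's methods, the authors trimmed 61-base single reads with Trimmomatic, mapped them with TopHat 2 to mm10, counted reads per Ensembl gene (GRCm38.p4) with HTSeq-count, whose strand setting is not given in the sources used here, and normalized and tested them with DESeq2. The deposited signal of a library is its reads per gene over a size factor set within a day, and whole reads were recovered for 100% of values (tolerance 0.001 reads). The deposited log2 fold changes and their standard errors, the score of the authors' Wald test and its p-values were not used. The 15209 genes listed at P14 and 15334 at P16 were all protein-coding.

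The plan named limma for normalized values, and count tools for recovered reads as alternatives. limma 3.58.1 in R 4.3.3 (mean-variance trend) was fitted on log2(value + 1), leaving out genes whose mean was under 10, with Benjamini-Hochberg adjusted p-values judged at 0.05. The genotype comparison stayed within a day and used values as deposited. Days and the interaction were compared on 14986 shared genes brought to a common scale by median-of-ratios factors of all 12 libraries. The genotype fits within a day were also run on simulated reads drawn without any effect of the replicate number. Such reads do not test the day comparisons, the interaction or the fits under the pairing seen here. Exact two-sided permutation tests of 3 against 3 cannot go below 0.1. Deviations from group means of libraries with the same number correlated within a day (0.573, 0.378 and 0.288 at P14; 0.266, 0.283 and 0.319 at P16) and not across days, so the number was used as a block within a day as an alternative. Levels per kilobase used the summed exon length of each gene in GENCODE M21, in which 28 of the 37 members have the listed coordinates. Promoter windows came from RefSeq on GRCm38.p6.

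The members and lists were chosen with earlier results of these data known. Values in every library are given for members past the threshold in any comparison by limma, limma with the block, DESeq2 or edgeR and for the 3 members of each role with the highest mean per length, and up to 4 called genes with the largest change are named from each pathway list in a comparison. Of the members, 1 is counted but its name and values are not reported here. The changes of Emilin1 and Postn in control mice, as the lower ligands, were chosen for their role after values were seen. So were the values of Npnt, Fn1, Vcam1, Itgb4, Itga6, Itga11, Lama4, Lamb3, Itga1 and single markers, and those of Emilin1 at P16. Alternatives were DESeq2 1.42.0, edgeR 4.0.16, the block, pseudocounts of 0.1 and 10, other filters, TMM, a joint or a narrower fit, and leaving out each library. edgeR with the block and leaving out both P14 replicate 1 libraries were chosen after seeing the data.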

Additional observations from a re-analysis of the deposited data

How the results depend on the processing

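At P16 the 2 members called by limma became 5 with DESeq2 (Agrn, Itga3, Itga9, Lama3 and Lamc3, against 8.35% of all genes), 8 with the replicate block, 9 with edgeR and the replicate block (Itga6 added) and 1 in the joint fit of 12 libraries, where the adjusted p of Agrn was 0.0572. They became 3 with a pseudocount of 10 (Agrn, Itga3 and Lama3). Leaving out one library gave 1 to 3 members. Lama3 was called each time, and Itga7 and Lama5 took the place of Agrn without P16 dMF1/2 replicate 2. At P14 the count of 0 became 2 with the replicate block and 2 with edgeR and the replicate block (Agrn and Itga8 both times), and it was 0 without any one library. For control mice between the days, where the numbers do not pair the libraries, the 3 members became 5 with DESeq2, 1 in the fit of the compared libraries only, 1 without both P14 replicate 1 libraries (Lama3 both times) and 1 to 4 without one library. With edgeR, without the filter and with TMM scaling they were 2, Itga9 and Lama3, so the call of Itgav was lost each time. With the replicate block they were 2, Lama3 and Lamc3. For dMF1/2 mice the count of 0 became 2 with DESeq2, 1 with the replicate block, 1 with edgeR and the replicate block and 1 without both P14 replicate 1 libraries (Itgb8 in these 3 cases). Without one library it was 0 to 1, Itgb8 without P14 dMF1/2 replicate 1 and Nid2 without P16 dMF1/2 replicate 2. The interaction gave 0 members under each alternative. The cause of these moves was not tested.

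Over single members whose change is stated, 306 values kept their side of the threshold, 32 lost a call, 35 gained one and 0 reversed. TMM scaling moved the median of all genes by less than 0.1 on the log2 scale. With 3 mice a group, a difference that did not pass is not shown to be absent.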

Other observations

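Subunits best known from blood cells were present at low or moderate levels. Itga2b, the platelet subunit that pairs with beta 3, had 104 to 191 normalized reads in the 12 libraries, while the platelet genes Pf4, Ppbp, Clec1b and Treml1 were not listed at either age and Gp1bb averaged 42.9 to 82.3 in the 4 groups. Itgal and Itgb2, which together form a leukocyte integrin, had 0 to 7.46 normalized reads in every library, and Itgb6, known from epithelium, had 0 to 7.56. Lama1, the chain of embryonic basement membranes, had 1.06 to 15.8. Itga4, a receptor subunit for fibronectin and Vcam1 that overlaps Cerkl, had 123 to 351 normalized reads, and its ligand Vcam1 averaged 820 to 1010 in the 4 groups. Itga2 and Itga10, both collagen receptor subunits, had 56.3 to 139 and 27.8 to 52.7. The groups of Itga2, Itga2b, Itga4 and Itga10 overlapped between genotypes at both ages.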
